A study of Mus musculus with 24 samples.

Results

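The genes described here encode the proteins of the cytoplasmic ribosome. They were taken from the table of estimated counts by symbol: Rpl or Rps with a number and the usual suffixes, Rpsa, and Rplp0, Rplp1 and Rplp2, with a mean of at least 10 counts over the 24 libraries. The symbols of 89 of the 55291 gene rows matched, and 84 of those reached the minimum. Rps3a2 and Rps3a3, pseudogene copies of Rps3a1, were set apart, which left 82 genes: 46 of the large subunit, 3 of its stalk and 33 of the small subunit. The 5 symbols below the minimum were Rpl3l, Rpl39l, Rpl32l, Rps12l1 and Rpl10l. RefSeq types 2 of the 82, Rpl6l and Rps4l, as pseudogenes, and Rack1, Fau and Rpl36al belong to the ribosome or its paralogues but lie outside the symbol rule.

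Hippocampus was taken from 3 groups of 4 mice. One group was wild-type and untreated (WT). The other groups carried the 5xFAD transgenes, mutant forms of human amyloid precursor protein and presenilin driven by the neuronal Thy1 promoter, and received either vehicle or MS1262, which the series' title describes as a brain-penetrant inhibitor of the histone methylase G9a. Dose, duration, age, sex and strain are not given in the sources used here, the WT mice were matched for age, and no WT mice received vehicle or MS1262, so genotype and vehicle cannot be told apart in the comparisons with WT. From each animal's poly(A)-selected RNA, 10% of 150 ng was sequenced as input, and the rest was precipitated with an antibody against N6-methyladenosine (m6A) and sequenced as IP. The ratio of IP to input is a relative measure of how far a transcript was recovered by the antibody.

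Ribosomal proteins are made in near-equal numbers, and their messengers are short, abundant and long-lived. In mammals most of them begin with a run of pyrimidines right at the cap, the TOP motif, through which mTOR and LARP1 control their translation. m6A is laid down by the METTL3 complex, mainly in long internal exons and near stop codons, so that short messengers with many small exons are known as poor substrates.

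Libraries held 3.98 to 48.6 M gene counts. The 82 genes took 1.07% to 1.37% of the counts in the 12 input libraries. In 11 of the 12 IP libraries they took 0.83% to 1.07%, and in the IP library of vehicle animal 4, which was the smallest of all with 3.98 M counts, 1.92%. That library stands apart in the results below. Some of them are also given without it, and vehicle values given only once include it. Vehicle animal 3 stands apart in another way. Its summed choroid plexus markers reached 7341 CPM in input and 6042 CPM in IP, against at most 770.7 CPM in the other input libraries. CPM are counts scaled to a common library total.

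**Figure D1:**
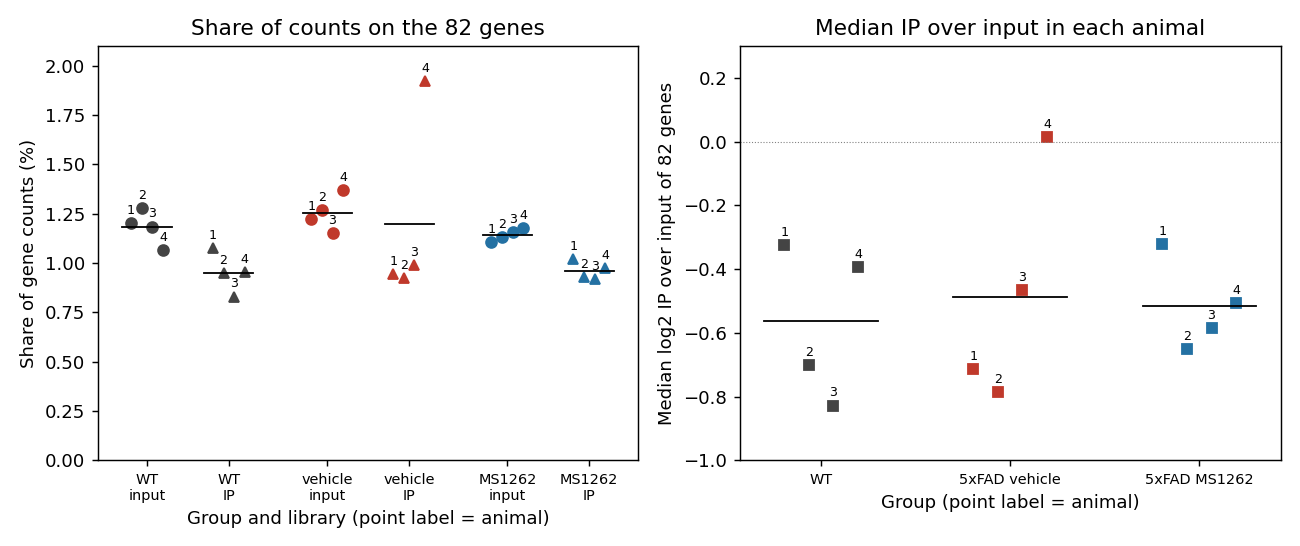
Left, share of gene counts (%) on the 82 ribosomal protein genes in each input (circle) and IP (triangle) library. Right, median log2 IP over input of the 82 genes in each animal. Lines are group means of 4 animals. Vehicle animal 4 lies above the others in both panels, at 1.92% of IP counts and a median of 0.02, while the medians of the other 11 animals lie between -0.83 and -0.32.

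In input, the level per transcript length, in TPM, spread widely although the proteins are needed in like numbers. The median gene had a mean of 261.1 TPM over the 12 animals, the highest 1162 and the lowest 4.92, and 71 of 82 were above 100 TPM. Rps14, a platform protein of the small subunit, came first with 1162 ± 153 TPM (SD, n = 12). Rps27 followed with 1161 ± 199, Rpl41, the smallest ribosomal protein, with 1102 ± 95, and Rpl35 with 1100 ± 130 TPM. Each of these levels was within 1 SD of the next in the order, and their ranges over animals overlapped. Outside the rule, Fau had 320.2 ± 71 TPM, Rpl36al 218 ± 22 and Rack1, the receptor for protein kinase C on the small subunit, 194.8 ± 17.

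The stalk proteins, which recruit translation factors to the ribosome, differed from each other. Rplp1 was at 570.3 ± 138 TPM, its partner Rplp2 at 206.5 ± 28 and their anchor Rplp0 at 184.5 ± 32. Rps6, the classical substrate of S6 kinase, had 534.8 ± 27 TPM, Rps27a, which is made as a fusion with ubiquitin, 404.5 ± 35, and Rpsa, also known as the laminin receptor, 212.6 ± 14. Among paralogues, Rpl22l1 was above Rpl22, with 454.5 ± 67 against 62.6 ± 4.6 TPM, and the 2 ranges did not overlap. The other pairs ran the opposite way: Rps27l had 102 ± 9.9 TPM against 1161 for Rps27, Rpl7l1 48.5 ± 7 against 443.4 for Rpl7, and Rps4l 9.03 ± 3.1 against 219.4 for Rps4x. Rpl6l, at 4.92 ± 0.99 TPM, was the lowest of all. Rpl3l and Rpl39l did not reach the count minimum, and Rpl10l had no counts in any library, while Rpl3, Rpl39 and Rpl10 were at 630.5, 83.4 and 319.5 TPM.

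Promoter sequence was at hand for 60 of the 82 genes (RefSeq, GRCm38.p6, 250 bases before to 50 after the annotated start). The windows below run from 60 bases before to 25 bases after the start, and are shown because these genes lie at the low or the high end of IP over input described next. Capitals mark CTTTC up to 20 bases before or after the annotated start, on the gene's own strand. They also mark CTTCCG or its reverse complement CGGAAG, the core bound by ETS factors such as GABP. A CTTTC before the start, as in Rpl13, lies outside the annotated transcript, so it is not by itself a TOP motif.
Rps27 (chr3:90213624-90213708, minus strand): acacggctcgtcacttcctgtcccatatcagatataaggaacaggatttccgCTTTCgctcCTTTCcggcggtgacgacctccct
Rps27l (chr9:66946026-66946110, plus strand): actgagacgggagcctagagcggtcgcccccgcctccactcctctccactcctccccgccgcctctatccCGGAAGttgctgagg
Rpl35 (chr2:39005107-39005191, minus strand): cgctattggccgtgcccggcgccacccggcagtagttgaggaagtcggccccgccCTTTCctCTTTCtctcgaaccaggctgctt
Rpl34 (chr3:130730374-130730458, minus strand): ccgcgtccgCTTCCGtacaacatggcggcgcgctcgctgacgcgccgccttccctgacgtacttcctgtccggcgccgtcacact
Rplp2 (chr7:141447591-141447675, plus strand): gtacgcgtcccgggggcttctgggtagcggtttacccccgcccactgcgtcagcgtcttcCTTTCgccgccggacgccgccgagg
Rpl13 (chr8:123102290-123102374, plus strand): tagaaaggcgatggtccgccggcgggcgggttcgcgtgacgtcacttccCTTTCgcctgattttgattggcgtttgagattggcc
Rpl18 (chr7:45718011-45718095, plus strand): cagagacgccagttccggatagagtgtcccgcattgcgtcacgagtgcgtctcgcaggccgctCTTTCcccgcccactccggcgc
Rpl7l1 (chr17:46782632-46782716, minus strand): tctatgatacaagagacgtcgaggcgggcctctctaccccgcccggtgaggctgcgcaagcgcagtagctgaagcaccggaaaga

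CTTTC near the start was found in 17 of the 60 (28.3%), against 5.38% of all 27025 promoters in the table. CTTCCG on either strand anywhere in the 300 bases was found in 41 (68.3%), against 17.2%. The 2 motifs shared no bases in any of the 60. The longest pyrimidine run near the start had a median of 7 bases, against 5 over all promoters. Genes on both sides held the motif: Rps27, Rpl35 and Rplp2 at the low end of IP over input, and Rpl13 and Rpl18 at the high end. The median log2 IP over input, averaged over the groups, was -0.43 for the 17 with CTTTC and -0.72 for the 43 without. These motifs were chosen after the promoters had been seen, and a match of letters is a description only.

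IP recovered most ribosomal protein transcripts less well than the average transcript, in every group. In WT, 53 of the 82 fell in IP against input and 3 rose, with 16.2% of all 18300 genes tested lower, 16.8% higher and 33.0% either (edgeR's quasi-likelihood test with the animal as a block, adjusted p below 0.05). In vehicle-treated 5xFAD mice 52 fell and 6 rose, with 20.6% and 19.1% of all genes (39.7% in all). With MS1262, 52 fell and 6 rose, with 17.6% and 20.5% of all genes (38.1% in all). The median log2 ratio of the 82 was -0.51 in WT, -0.51 with vehicle and -0.47 with MS1262, and that of all genes 0.00, -0.03 and 0.02. Without vehicle animal 4 the vehicle group had 66 lower, 6 higher and a median of -0.64. The share of all genes called in that fit was not taken, so a general gain in calls cannot be told apart there.

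The same 48 genes were lower in all 3 groups, and 58 were lower in at least 1. No gene was lower in 1 group and higher in another. In single animals, 34 genes were below 0 in all 12. The matching counts over all genes were not taken, so these numbers describe the 82 genes only. The median over the 82 lay at -0.32, -0.70, -0.83 and -0.39 in the WT animals, -0.71, -0.79, -0.46 and 0.02 with vehicle, and -0.32, -0.65, -0.59 and -0.51 with MS1262. The groups overlapped, and the vehicle animal near 0 was animal 4, in which 42 genes were above 0 and 40 below.

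These counts depend on the scale. On TPM, with limma on log2(TPM + 1), the ratio of all genes tested was itself shifted up, with medians of 0.44 in WT, 0.54 with vehicle and 0.48 with MS1262. The medians of the 82 became 0.02, 0.16 and 0.05, which is 0.41, 0.38 and 0.43 below those of all genes. Calls then split as 21 higher and 22 lower in WT, 31 and 10 with vehicle, and 24 and 17 with MS1262. Of all 13915 genes tested on that scale, 7327 were called higher and 487 lower in WT. With vehicle it was 8544 and 321, and with MS1262 7845 and 334. Of the 48 genes lower in all groups on counts, 30 stayed below 0 on TPM in all 3 groups, 9 were above 0 in all 3, and 47 were below the all-gene median in all 3. The cause of the shift was not tested.

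**Figure D2:**
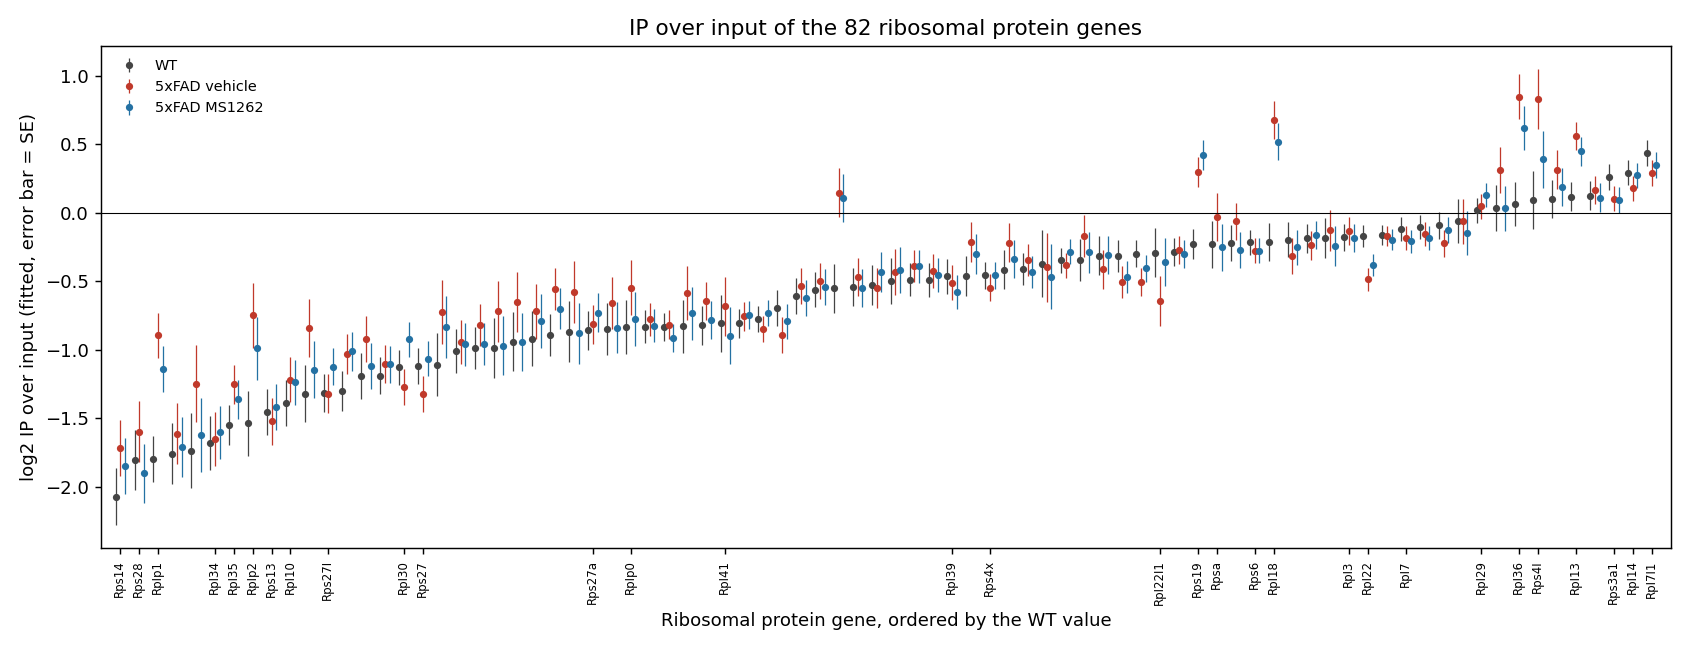
Fitted log2 IP over input (y axis, error bars are SE) of the 82 genes (x axis, ordered by the WT value, with genes of the text named) in WT, 5xFAD with vehicle and 5xFAD with MS1262. The values run from -2.07 for Rps14 to 0.44 for Rpl7l1 in WT, and 72 of 82 lie below 0 there.

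The small subunit lay lower than the large one. In WT its median log2 ratio was -0.85, with 26 of 33 genes lower and 1 higher, and that of the large subunit without the stalk -0.35, with 24 of 46 lower and 2 higher. With vehicle the medians were -0.72 and -0.40, and with MS1262 -0.79 and -0.35. The subunits were not tested against each other.

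Rps14 was the lowest small-subunit gene in WT. Its log2 IP over input was -1.57, -2.30, -2.59 and -1.83 in the WT animals, -2.10, -2.21, -1.83 and -0.69 with vehicle, and -1.55, -1.91, -2.08 and -1.87 with MS1262. All 12 values were below 0, the one nearest to 0 being vehicle animal 4. The fitted values were -2.07 ± 0.21 (SE, edgeR adjusted p = 1.39e-06), -1.72 ± 0.21 (edgeR adjusted p = 7.60e-06) and -1.85 ± 0.20 (edgeR adjusted p = 3.29e-06). Rps28, one of the shortest ribosomal proteins, had -1.80 ± 0.22, -1.60 ± 0.22 and -1.90 ± 0.22 in the same order. Rps13 had -1.46, -1.52 and -1.42. Rps27 and Rps27l had nearly the same values: -1.12 and -1.32 in WT, -1.32 and -1.32 with vehicle, and -1.07 and -1.12 with MS1262. Rps27a was lower in all 3 groups too, at -0.86, -0.82 and -0.73. Rps6 moved less, with -0.22 ± 0.09 in WT (edgeR adjusted p = 0.0802) and -0.28 ± 0.09 in each 5xFAD group (edgeR adjusted p = 0.0217 and 0.0223), but on TPM it was above 0 in all 3, at 0.36, 0.48 and 0.33. Rpsa did not pass in any group, at -0.23, -0.03 and -0.25.

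All 3 stalk genes were lower in every group. Rplp1 had log2 ratios of -1.497, -1.75, -2.19 and -1.76 in the WT animals, -1.15, -1.36, -0.997 and -0.05 with vehicle, and -0.82, -1.25, -1.39 and -1.12 with MS1262. Every WT value lay below every 5xFAD value. The fitted values were -1.80 ± 0.17, -0.90 ± 0.17 and -1.14 ± 0.17. Rplp2 followed with -1.54 ± 0.24, -0.75 ± 0.24 and -0.99 ± 0.23, and Rplp0 with -0.84 ± 0.20, -0.55 ± 0.20 and -0.78 ± 0.20. On TPM Rplp0 was at -0.30 in WT, 0.21 with vehicle and -0.15 with MS1262, so its direction with vehicle depends on the scale.

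In the large subunit, Rpl34 (-1.68 ± 0.20 in WT) and Rpl35 (-1.55 ± 0.15) were among the lowest. Their values with vehicle were -1.65 and -1.25, and with MS1262 -1.60 and -1.36. Rpl10, which joins the large subunit late in its assembly, fell by 1.39, 1.22 and 1.24 on the log2 scale. Rpl41 fell by 0.81, 0.68 and 0.90, and Rpl39, a protein of the exit tunnel, by 0.47, 0.51 and 0.58. On TPM Rpl39 was at 0.11, 0.21 and 0.03, and Rpl41 at -0.25, 0.06 and -0.32. Rpl3, next to the catalytic centre, did not pass in any group, at -0.18, -0.13 and -0.19, and nor did Rpl7, at -0.12, -0.19 and -0.21, or Rpl29, at 0.02, 0.05 and 0.13. Rpl22 passed with vehicle (-0.49 ± 0.08) and MS1262 (-0.38 ± 0.08), and in WT it had -0.17 ± 0.08, but on TPM it was slightly above 0 in all 3 groups. Its paralogue Rpl22l1 passed with vehicle alone, at -0.64 ± 0.18, where animal 4 had -1.69 and the others -0.57 to -0.13, and on TPM it was at 0.03 there.

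A few genes ran the other way. Rpl7l1, the Rpl7 paralogue with a role in ribosome assembly, rose in all 3 groups, by 0.44 ± 0.10 in WT, 0.29 ± 0.10 with vehicle and 0.35 ± 0.10 with MS1262. Its 12 values lay between 0.03 and 0.65. With vehicle it passed in 1 of the 4 omissions of an animal, and in the other groups in all. Rpl14 rose in WT (0.29 ± 0.09) and with MS1262 (0.27 ± 0.09), but passed in 2 and in 0 of the 4 omissions. Rpl13, Rpl18, Rpl36 and Rps19 rose in both 5xFAD groups and did not pass in WT, Rps19 with vehicle in 2 of the 4 omissions only. Rps3a1 rose in WT, in 1 of the 4 omissions. Rps4l rose with vehicle, by 0.83 ± 0.22, with 1.96 in animal 4 and 0.04 to 0.95 in the others, and its annotated span overlaps Tmtc1. The 16 genes that passed in no group include Rpl5, Rpl11, Rpl7a and Rpl8. Values across the 82 genes went together between groups, with Pearson's r of 0.89 to 0.96. The groups share no animals, but they share transcript lengths, library method and 1 fit.

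All 82 transcripts were shorter than the median gene. Effective length, taken from the ratio of count to TPM, was 0.048 to 0.858 times that of the median gene, with a median of 0.181, and 69 of the 82 fell in the shortest of 10 equal length classes of 15504 genes. All genes of that class had a median log2 IP over input of -0.28, and the 69 of -0.72. The shorter 41 of the 82 had a median of -0.80 and the longer 41 of -0.27. Spearman's rho between length and IP over input was 0.48 over the 82 genes and 0.04 over all 15504. With input TPM, rho over the 82 was -0.32. The part of length in the low IP over input was not tested beyond these values. Rpl36 was among the shortest and yet the highest, with a mean of 0.51 over the groups, so length and ratio did not run together in every gene.

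**Figure D3:**
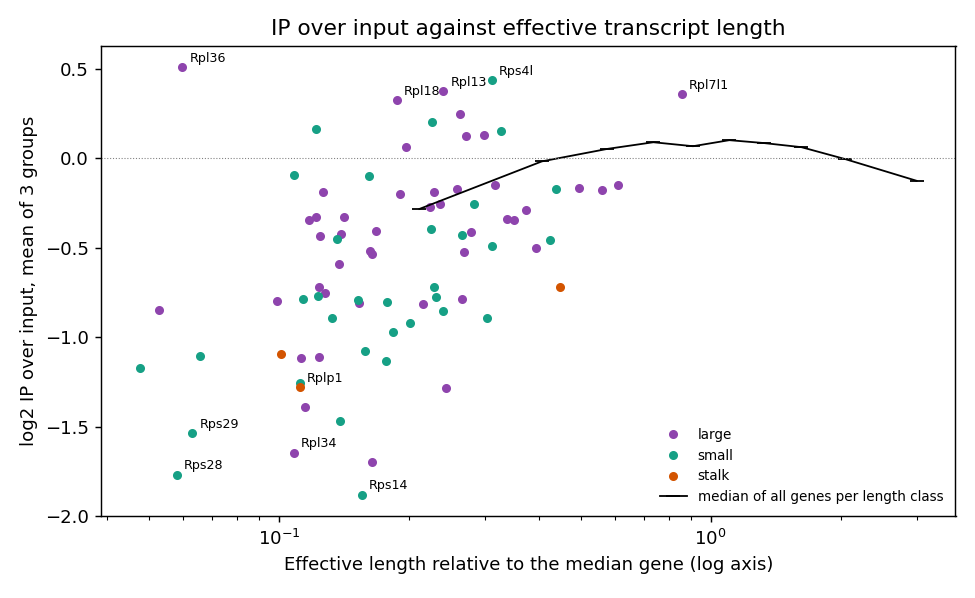
Log2 IP over input, mean of the 3 groups (y axis), against effective transcript length relative to the median gene (x axis, log scale) for the 82 genes, by subunit. The black line joins the medians of all genes in 10 length classes. The 69 genes in the shortest class have a median of -0.72, against -0.28 for all genes there.

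In input, 1 gene passed the test between 5xFAD mice with vehicle and WT. Rpl29, a protein of the large subunit on chr9:106428889-106431568 (GRCm38), was at 62.5, 65.7, 59.7 and 59.0 CPM (scaled by TMM, trimmed mean of M values) in the WT animals and at 104.8, 102.5, 103.0 and 112.5 with vehicle. The groups did not overlap. The log2 difference was 0.78 ± 0.16, a 1.71-fold higher level (edgeR adjusted p = 0.0237). It was the 1 gene of 82 called higher, and 0 were lower (11 at an unadjusted p below 0.05, with 12.8% of all genes), with 1.06% of all 17693 genes called higher and 0.514% lower (1.57% in all). Rpl29 and Rps13 were the 2 genes whose vehicle values all lay above WT, and 0 lay below, against 4.08% and 3.00% of all genes. The call is a narrow one, passing in 3 of the 8 omissions of 1 animal. Without WT animal 1, 3 or 4 or vehicle animal 1 or 2 it did not, with adjusted p values up to 0.0817 by edgeR and log2 differences of 0.75 to 0.81 throughout, and on TPM its adjusted p by limma was 0.0707. DESeq2 called Rpl29 and Rplp1.

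MS1262-treated mice fell into 2 levels for Rpl29. Animals 1, 2 and 4 had 107.5, 107.6 and 107.0 CPM, the level of the vehicle group, and animal 3 had 57.8, the level of WT. The IP libraries repeated this, with 139.8, 131.7 and 138.7 CPM in animals 1, 2 and 4 and 76.4 in animal 3. The IP libraries of WT had 57.9 to 81.5 CPM and those with vehicle 120.6 to 144.0. Over all 4 animals the difference from WT in input was 0.62 ± 0.16 (edgeR adjusted p = 0.0676). Without animal 3 it was 0.81 ± 0.08, but that animal was singled out by its own Rpl29 value. The p of that fit is therefore not read as a test. The other omissions of 1 animal did not pass (edgeR adjusted p of 0.138 to 0.177). IP over input of Rpl29 was near 0 in every animal, from -0.29 to 0.17.

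Rplp1 ran the other way. It was at 216.8, 181.7, 170.1 and 155 CPM in WT, 118.1, 113.9, 122.3 and 173.9 with vehicle, and 114.6, 129.8, 130.8 and 118.5 with MS1262. The MS1262 group lay wholly below WT, and the vehicle group did so but for animal 4. Neither difference passed: with vehicle it was -0.45 ± 0.14 (edgeR adjusted p = 0.134) and with MS1262 -0.55 ± 0.14, a 1.47-fold lower level (edgeR adjusted p = 0.0645). Without vehicle animal 4 the difference of vehicle from WT was -0.61 ± 0.11 and passed (edgeR adjusted p = 0.0159). That fit leaves out the animal whose own value differed. No other omission of 1 animal passed there (edgeR adjusted p of 0.118 to 0.295). On TPM limma called Rplp1 in both comparisons with WT.

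The rest of the input differences were small. In vehicle against WT the 82 genes had a median log2 difference of 0.08 (all genes 0.01), with 62 above 0 on the count scale, and on TPM the median turned to -0.07. In MS1262 against vehicle it was -0.13 (all genes -0.01), with 75 of 82 below 0. The largest differences there by p were Rpl3 (-0.33 ± 0.10) and Rpl41 (-0.30 ± 0.10), both with an edgeR adjusted p of 0.848. Rpl3 was at 690 to 884 CPM with vehicle and at 606 to 651 with MS1262, without overlap. edgeR called 0 of the 82 (8 at an unadjusted p below 0.05, with 5.67% of all genes), as it did 0 of all 17693 genes, which is 0%, and DESeq2 and limma called 0 of the 82. In 8 genes all MS1262 values lay below vehicle and in 0 above, against 1.85% and 1.55% of all genes. They include Rpl3, Rpl15, Rpl27, Rpl41, Rpl7l1, Rps14 and Rps18. Without vehicle animal 4 the median was -0.08. In MS1262 against WT the median was -0.05 (all genes 0.00), and edgeR called 0 (9 unadjusted, with 14.3% of all genes), against 0.910% of all genes higher and 0.390% lower (1.30% in all). Rpl10 lay above WT in all MS1262 animals, and Rpl3, Rpl4, Rpl18, Rpl36 and Rplp1 below, which is 1 and 5 genes, against 5.23% and 4.90% of all genes. DESeq2 called Rpl29 and Rplp1 there and limma on TPM Rplp1. In bulk tissue fewer cells of a type and less RNA per cell cannot be told apart, and microglia markers, summed over 8 genes, were at 279.6 to 326.9 CPM in WT input and 311.2 to 600.6 in 5xFAD input, with none at 0 and 5 of the 8 called higher in each comparison with WT. Their part in these differences was not tested.

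IP libraries taken alone gave no call. In vehicle against WT edgeR called 0 of the 82 (4 unadjusted), with 0.431% of 16941 genes higher and 0.106% lower (0.537% in all). In MS1262 against vehicle it called 0 (4 unadjusted) with 0% of all genes, and in MS1262 against WT 0 (4 unadjusted) with 0.555% higher and 0.118% lower (0.673% in all). Over all genes 10.9%, 3.54% and 11.4% were at an unadjusted p below 0.05. Groups were apart in few genes. Rpl29 lay above WT with vehicle and 0 genes below, against 3.31% and 2.73% of all genes. Rpl4, Rpl5 and Rps7 lay below vehicle with MS1262 and 0 above, against 1.47% and 1.33%. Rpl3, Rpl4 and Rpl7a lay below WT with MS1262 and 0 above, against 6.97% and 7.52%. DESeq2 called Rpl29 in both comparisons with WT and no gene in the other. The median differences of the 82 were 0.25, -0.28 and -0.03. The first and the second rest on vehicle animal 4: without it they were -0.05 and 0.03.

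Comparing IP over input between groups, Rpl18 rose in 5xFAD mice with vehicle against WT. This large-subunit gene had log2 ratios of -0.03, -0.17, -0.18 and -0.47 in WT, 0.60, 0.38, 0.37 and 1.37 with vehicle, and 0.65, 0.44, 0.50 and 0.47 with MS1262. All 4 WT values were below 0 and all 8 5xFAD values above. The difference between vehicle and WT was 0.89 ± 0.19 (edgeR, interaction term, adjusted p = 0.0365), the 1 call among the 82, with 0.962% of 18300 genes called higher and 0.0273% lower (0.989% in all). Without vehicle animal 4 it was 0.67 ± 0.13 (edgeR adjusted p = 0.0104), and it passed in 3 of the 8 omissions, those of vehicle animals 2, 3 and 4. In input Rpl18 was at 19.7 to 26.7 CPM in WT, 14.9 to 25.6 with vehicle and 17.5 to 19.3 with MS1262, and in IP at 19.6 to 30.9, 26.3 to 80.1 and 28.6 to 35.03. With MS1262 the difference from WT was 0.73 ± 0.19 (edgeR adjusted p = 0.0801). The annotated span of Rpl18 (chr7:45715467-45720835) overlaps Sphk2, and the strand setting of the counting is not given in the sources used here.

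Other genes shared the shape of Rpl18 without passing over all 4 animals a group. Rps19, the gene most often mutated in Diamond-Blackfan anaemia, had -0.22, -0.36, -0.38 and 0.03 in WT, 0.36, 0.07, 0.06 and 0.70 with vehicle, and 0.26, 0.35, 0.50 and 0.56 with MS1262. WT lay below both 5xFAD groups. The difference was 0.53 ± 0.16 with vehicle (edgeR adjusted p = 0.147) and 0.65 ± 0.15 with MS1262 (edgeR adjusted p = 0.0504). Without vehicle animal 4 the first was 0.40 ± 0.11 (edgeR adjusted p = 0.0715). Rplp1, described above, differed by 0.90 ± 0.23 with vehicle (edgeR adjusted p = 0.0917) and by 0.65 ± 0.23 with MS1262 (edgeR adjusted p = 0.246). Without vehicle animal 4 the first was 0.62 ± 0.14 and passed (edgeR adjusted p = 0.0267), and no other omission of 1 animal passed (edgeR adjusted p of 0.0601 to 0.238). In IP Rplp1 was at 42.65 to 86.6 unscaled CPM in WT, 53.2 to 218.3 with vehicle and 59.75 to 78.5 with MS1262. The groups overlapped there, and the input levels of Rplp1 are given above. Rpl13 had 0.03 to 0.24 in WT, 0.33 to 0.98 with vehicle and 0.32 to 0.66 with MS1262. Rpl13, Rpl18, Rplp1 and Rps19 were the 4 genes whose vehicle values all lay above WT, and Rpl22 the 1 whose values all lay below, against 4.33% and 3.23% of all genes. Against WT, 6 genes had all MS1262 values above, the 4 just named with Rpl36 and Rps4l, and 0 below, against 6.57% and 3.95% of all genes. Both comparisons use the same WT animals.

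Between MS1262 and vehicle no IP over input passed the test. edgeR called 0 of the 82 and 0 were at an unadjusted p below 0.05, with 0% of all 18300 genes called and 434 unadjusted. Groups were apart in 0 of the 82, against 1.48% of all genes higher and 0.787% lower. DESeq2 and limma called 0. The smallest p values belonged to Rpl30 (0.35 ± 0.18) and Rps4l (-0.44 ± 0.30), each with an edgeR adjusted p of 1. In MS1262 against WT edgeR called 0 (6 unadjusted, with 11.1% of all genes), with 1.22% of all genes higher and 0.0219% lower (1.24% in all). DESeq2 called Rpl18 and Rps19 there. The median differences of the 82 were 0.07 for vehicle against WT, -0.05 for MS1262 against vehicle and 0.03 for MS1262 against WT, and without vehicle animal 4 the first was -0.07 and the second 0.11.

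**Figure D4:**
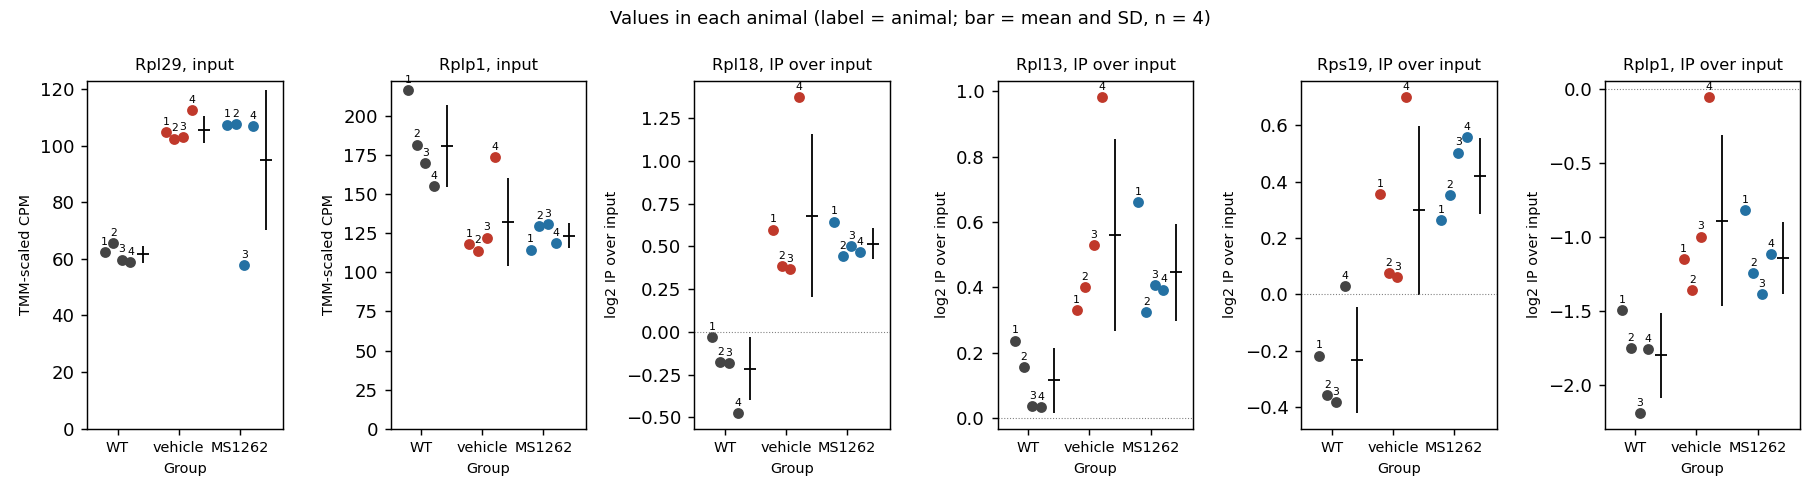
Values in each animal for Rpl29 and Rplp1 in input (TMM-scaled CPM, axis from 0) and for Rpl18, Rpl13, Rps19 and Rplp1 in log2 IP over input. Points are animals 1 to 4 of WT, 5xFAD with vehicle and 5xFAD with MS1262, and bars are mean and SD (n = 4). Rpl29 of MS1262 animal 3, at 57.8 CPM, lies with the WT animals.

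The authors' peak lists were made separately for each animal from its IP and input, and the number of ribosomal protein genes in them varied from animal to animal. A peak overlapped the annotated span of 18, 4, 11 and 18 of the 82 genes in the WT animals, against 10.3%, 16.8%, 12.1% and 13.1% of 16877 genes. With vehicle it was 6, 3, 7 and 66, against 19.3%, 12.6%, 14.4% and 18.8%, and with MS1262 18, 6, 11 and 8, against 15.6%, 17.1%, 17.3% and 19.2%. As shares of the 82, WT animals 1 and 4 and MS1262 animal 1 had 22%, and WT animal 3 had 13.4%, each above the share of all genes. WT animal 2, vehicle animals 1, 2 and 3 and MS1262 animals 2, 3 and 4 had 3.66% to 13.4%, each below the share of all genes in that animal, and vehicle animal 4 had 80.5%. The 66 genes of vehicle animal 4 stand far above the others, and 39 genes had a peak in that animal alone. Over the other 11 animals 29 genes had a peak, and 14 genes had none anywhere.

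Rpl13 had a peak in all 8 5xFAD animals and in no WT animal. In MS1262 animal 1 it lay at chr8:123102711-123103178, near the start of the gene (chr8:123102350-123105244), whose span also holds Snord68 and Mir7079. The authors' fold enrichment of the peak was between 2.11 and 4.52. Rpl18 had a peak in 2 vehicle animals and 4 MS1262 animals and in no WT animal. Rpl36 had one in 3 WT, 3 vehicle and 4 MS1262 animals, near the end of the span, for instance at chr17:56613696-56614156 in WT animal 1. Rpl7l1 and Rpl7a each had one in 4, 3 and 3 animals. For Rpl13 and Rpl18 the groups with peaks are those with the higher IP over input, from the same libraries. An absent peak means only that the caller's threshold was not passed at that library's depth.

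Counts on Rps3a1 and its copies were divided between the rows in a way that differed between animals. Rps3a1 encodes a small-subunit protein near the exit of the messenger channel. In input, Rps3a1 had 44.7, 51.8, 228.2 and 118.2 unscaled CPM in the WT animals, and between 210.9 and 251.1 in the 8 5xFAD animals. Rps3a2 had 109.8, 114.5, 3.71 and 48.9 CPM in WT and 3.30 to 5.60 in 5xFAD. Rps3a3 had 82.5, 80.1, 0.79 and 37.5 CPM in WT and at most 0.14 in 5xFAD. WT animal 3 thus looked like the 5xFAD animals and WT animals 1, 2 and 4 did not.

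The sum of the 3 rows hardly varied. It was 230.1 ± 18 CPM in WT, 242.4 ± 18 with vehicle and 240.7 ± 14 with MS1262 (SD, n = 4 each), while the share of it on Rps3a1 was 48.9 ± 37%, 98 ± 0.3% and 98.1 ± 0.5%. The IP libraries showed the same split animal by animal, with 20.7%, 18.1%, 96.4% and 59.9% on Rps3a1 in WT and 96.6% to 98.3% in 5xFAD. In the fit, Rps3a1 was 1.10 ± 0.37 higher on the log2 scale with vehicle than in WT (edgeR adjusted p = 0.198), and without WT animal 3 it passed. Rps3a2 passed in input, at -3.88 ± 0.66 with vehicle (edgeR adjusted p = 0.00826) and -3.91 ± 0.66 with MS1262 (edgeR adjusted p = 0.00826), and in IP, at -3.91 ± 0.62 and -3.88 ± 0.60 (edgeR adjusted p = 0.01 and 0.00672). Rps3a3 also passed in each of these comparisons with WT, against groups at or near 0. It met the count filter through the WT libraries alone, so these passes are not read as a result. Reads of such copies can be split between the rows by the counting, so the values of each alone are uncertain. That holds for Rps3a1 in IP over input too (0.26 ± 0.09 in WT, edgeR adjusted p = 0.0408). Why the split differed between animals was not tested.

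**Figure D5:**
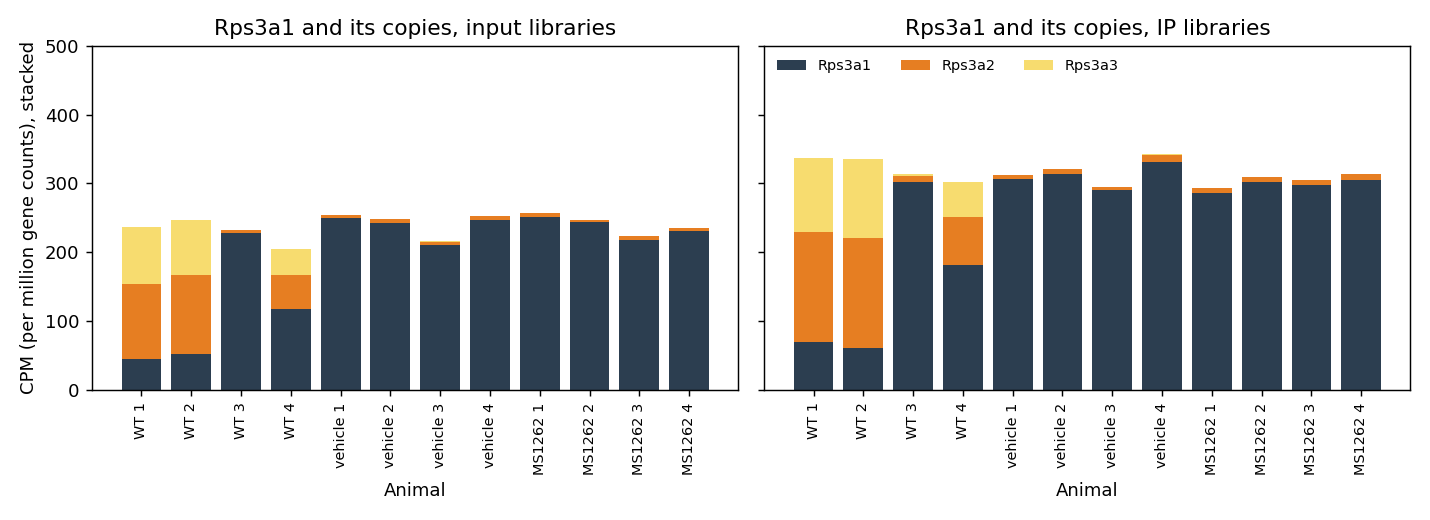
Stacked unscaled CPM (y axis) of Rps3a1, Rps3a2 and Rps3a3 in the input (left) and IP (right) library of each animal. The stacks are of like height, 204.5 to 256.7 CPM in input, but in WT animals 1, 2 and 4 much of the stack lies on the pseudogene copies.

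Of the genes named outside the symbol rule, Rack1 and Fau fell in IP against input in WT, and Rack1 with MS1262. Rack1 had a log2 IP over input of -0.89 ± 0.22 in WT (edgeR adjusted p = 0.00463), -0.50 ± 0.22 with vehicle and -0.79 ± 0.22 with MS1262 (edgeR adjusted p = 0.0082). Rpl36al was near 0 in WT and with vehicle. Fau, which encodes a small-subunit protein fused to a ubiquitin-like one, had -1.01 ± 0.12 in WT, -0.06 ± 0.12 with vehicle and -0.23 ± 0.12 with MS1262. Its difference from WT passed in both 5xFAD groups, at 0.95 ± 0.17 (edgeR adjusted p = 0.0148) and 0.78 ± 0.17 (edgeR adjusted p = 0.0312). In input these 3 had 0 calls in each comparison.

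Other gene lists of translation were read beside the shares of all genes given above, 16.8%, 19.1% and 20.5% higher and 16.2%, 20.6% and 17.6% lower in WT, vehicle and MS1262. The lists were not tested against the 82. The 13 elongation factors had medians of 0.07, 0.09 and 0.01 in WT, vehicle and MS1262, with 2, 4 and 4 higher and 3, 3 and 2 lower. Eef2, the translocation factor, rose most by p, at 1.07 ± 0.11 in WT, although it too has a TOP messenger. The 29 initiation factors had medians of -0.14, -0.19 and -0.13, with 7, 6 and 6 higher and 10, 9 and 9 lower. Eif5, which starts GTP hydrolysis on the scanning ribosome, was lowest by p in WT, at -1.26 ± 0.15. The 19 genes of mTOR and TOP control had medians of 0.13, 0.25 and 0.07, with 5, 7 and 6 higher and 4, 7 and 6 lower. Among them Mlst8, a subunit of mTOR complexes, was at 1.66 ± 0.12 in WT. The 12 regulators of ribosomal protein genes, Myc and others, had medians of -0.03, 0.03 and 0.16, with 3 higher in each group and 2, 3 and 2 lower. The 37 ribosome biogenesis genes had medians of -0.18, -0.02 and 0.13, with 8, 11 and 14 higher and 9, 12 and 11 lower. The 78 mitochondrial ribosomal protein genes, whose products build a different ribosome, had medians of -0.18, -0.22 and -0.09, with 8, 22 and 21 higher and 30, 32 and 27 lower. Of the 307 pseudogenes of ribosomal protein genes named by symbol, 48 could be tested, with medians of -0.45, -0.46 and -0.57, 2, 1 and 0 higher and 11, 12 and 12 lower. These rows share sequence with their parent genes.

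In input few genes of the lists passed. Between vehicle and WT 3 of the 37 biogenesis genes fell, beside 0.514% of all genes, with Nop58, a core protein of box C/D particles, at -0.52 ± 0.10 (edgeR adjusted p = 0.0177) and Rrn3, which brings RNA polymerase I to its promoter, at -0.53 ± 0.11 (edgeR adjusted p = 0.028). In MS1262 against WT 1 fell, beside 0.390% of all genes. It was Nhp2, a protein of box H/ACA particles, at -0.76 ± 0.14 (edgeR adjusted p = 0.0142). Of the 78 mitochondrial genes 2 fell in that comparison, Mrpl19 (-0.37 ± 0.08) and Mrpl36 (-0.70 ± 0.16), and 0 in the other 2. In IP over input 8 of the mitochondrial genes rose in vehicle against WT and 8 in MS1262 against WT, of 78 tested, with 0.962% and 1.22% of all genes, and Nhp2 rose in both, by 0.94 ± 0.15 each. None of the lists had a call between MS1262 and vehicle in input or in IP over input.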

How the data were processed

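The authors' deposited tables were used as they stand: estimated counts per gene and TPM for 24 libraries, and for each of 12 animals a MACS2 peak table with pileup signal, −log10 p and q values and fold enrichment, per the file headers. The submitters' processing notes name Trimmomatic 0.32, STAR 2.7.6a, Salmon 1.4.0, SAMtools 1.10, MACS2 2.1.2 and GRCm38/mm10. The annotation release and strand setting are not given in the sources used here. Libraries carry no molecular identifiers. Counts were rounded (8.6% of values were not whole). Each group has 4 biological replicates per the labels, taken here as mice, and IP and input were paired by replicate number within a group.

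The main test was edgeR 4.0.16 (R 4.3.3) quasi-likelihood with TMM, a filter at 10 counts and Benjamini-Hochberg adjustment over all genes tested (17693 in input, 16941 in IP, 18300 in IP over input). IP over input was fitted on all 24 libraries with each animal as a block and IP-by-group terms. SE is the log2 difference divided by the square root of F. Per-animal log2 ratios used a prior count of 2. Alternatives used DESeq2 1.42.0, limma 3.58.1 on log2(TPM + 1) or log2(TPM + 0.1) with a mean TPM of at least 1 or no filter, other scalings, and omission of each animal. Peaks were counted for a gene when they shared at least 1 base with its RefSeq span. The scripts were tested on simulated data.

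Members and lists were chosen with earlier results of these data known. Named were members passing the test, at most 8 a direction by p, or else the 2 with the smallest p, with the most abundant, the stalk, paralogue pairs and Rps3a1, and at most 2 genes of each list. Replicate numbers did not pair animals across groups (correlations of deviations -0.0931 to 0.0538 in input and -0.112 to 0.139 in IP). A few genes that the rule names are not reported here.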

Additional observations from a re-analysis of the deposited data

Results flagged for a closer look

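In the IP library of vehicle animal 4 the 82 genes took 1.92% of counts, against 0.926% to 0.989% in the other 3 vehicle animals, a gap of 0.937 of the group's range. Peaks overlapped 66 of the 82 genes in that animal and 3 to 7 in the others, again a gap of 0.937 of the range. Rpl29 was at 57.8 CPM in the input of MS1262 animal 3 and at 107.0 to 107.6 in the other 3 animals of that group. Rplp1 was at 173.9 CPM in the input of vehicle animal 4 and at 113.9 to 122.3 in the other 3. In each of these a single animal lay farther from the rest than Dixon's critical value for 4 samples allows. Of 36 groups of 4 values examined, 4 were of this kind. The genes among them were picked with results known, and the share and peak flags rest on the same IP library. The usual chance rate of 1 in 20 therefore does not apply to this count. IP over input of Rpl18 differed between vehicle-treated 5xFAD and WT mice by 0.89 (log2), by the test of that difference itself.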

How the results depend on the processing

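Of 216 recounts of members called, over 15 counts and all alternatives, 161 were within 1.5 times the main count, 29 were lower and 26 higher. The 161 include recounts where both counts were 0, and the genes called could differ. In input with vehicle against WT, limma on TPM called Rplp1 in place of Rpl29, and the fit without WT animal 3 called Rps3a1. None of 55 results on single genes (those that passed or had the smallest p in a comparison) changed direction in 724 refits. Outside these, direction was less stable in IP over input. Of the 48 genes lower in all 3 groups on counts, 9 were above 0 on TPM in all 3, Rpl24 and Rps9 among them. Genes that turn positive on TPM also include Rplp0 with vehicle, Rpl22, Rpl22l1, Rps6 and Rpl41 with vehicle, and Rpl39 is one of the 9. In input against WT, DESeq2 called 2 genes with vehicle and 2 with MS1262, the unfiltered fit 2 with MS1262, and limma on either TPM scale with the filter 1 with MS1262. On IP levels DESeq2 called 1 with vehicle and 1 with MS1262 against WT. For IP over input in WT, genes lower and higher were 22 and 21 with limma on log2(TPM + 1), 22 and 21 on log2(TPM + 0.1), and 18 and 16 without the filter. With vehicle they were 10 and 31, 10 and 31, and 10 and 27, and with MS1262 17 and 24, 17 and 24, and 13 and 21. Genes higher in WT were 1 in the unfiltered fit and 1 with TMM taken without the 82 and mitochondrial genes. For vehicle against WT in IP over input, DESeq2 called 4, the unfiltered fit 6, and each limma fit 0. For MS1262 against WT DESeq2 called 2, the unfiltered fit 3 and that TMM 1. The share of all genes called is given for the main fit and, within groups, for limma on log2(TPM + 1) only. For the other settings, omissions of an animal among them, a changed count cannot be told from a general change in calls. The causes were not tested.

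Omitting 1 animal gave 0 to 2 calls in input with vehicle against WT, 0 to 1 with MS1262 against WT, 0 to 1 on IP levels with MS1262 against WT, and 0 to 2 in IP over input with vehicle against WT. Within groups, 42 to 52 genes were lower in WT and 1 to 3 higher, 35 to 66 and 5 to 6 with vehicle, and 45 to 52 and 5 with MS1262.

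Without the replicate block (the animal), IP over input had 1 gene higher in WT, 31 lower with vehicle, 1 higher with MS1262, and 0 calls in vehicle against WT. With a replicate block across groups, where numbers do not pair animals, 1 gene was called in input with vehicle against WT, as without it. Same-numbered animals correlated best with each other in 2 of 24 cases.

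The number of animals, 4 a group, and the smallest library, of 3.98 M counts, limit the precision. The scale of IP over input is relative, without spike-in, so a general shift cannot be told from a change in the reference genes.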
